A study of Mus musculus with 4 samples.

Results

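A set of 93 RefSeq transcripts had their highest signal in Flk1+ mesodermal precursor cells (Flk1+ MPCs) among 4 cell populations made from mouse pluripotent stem cells. They were chosen from 16456 curated RefSeq messenger RNA names that were called well above background in Flk1+ MPCs, out of 20846 such names with a value on the array. Each name was scored by its log2 signal in Flk1+ MPCs minus the highest log2 signal in the other populations, the 100 names with the highest scores were taken, and 7 of these names, from a list of 10 that the rule leaves out, were removed. The removed names belong to Mesp1, Mixl1, T, Gsc, Sp5, Cyp26a1 and Eomes, regulators of the primitive streak and early mesoderm. Of the 93 transcripts, 91 matched a gene symbol, and they stand for 92 genes when the unmatched names are counted, since Kcnc1 has 2 names. The measured signals chose these transcripts, so the scores and folds below are a description and carry no test.

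RNA was hybridized to 1-colour Agilent arrays, with 1 array per population and all 4 arrays on 1 slide. Flk1+ MPCs were sorted at day 4.5 after withdrawal of leukemia inhibitory factor on gelatin-coated dishes. sfPCBs are the PDGFRα+ Flk1- cardioblasts that form without CsAYTE by day 5.5, and PCBs are those induced with CsAYTE by day 5.5. M+CMs are cardiomyocytes sorted at day 10.5 for GFP driven by the αMHC promoter, and their label does not say whether CsAYTE was present. CsAYTE combines Cyclosporin A with Y27632 against the kinase ROCK, EW7197 against the TGF-beta type I receptor ALK5, and Trolox as antioxidant. The study's methods plate sorted Flk1+ MPCs on mitomycin-treated OP9 stromal feeder cells or on gelatin for the later steps. They name both EMG7 cells, which carry the αMHC-GFP transgene, and E14Tg2a cells, and the labels do not say which line a population came from. Population, day, culture substrate and array position therefore cannot be told apart, and with a single array for each population every ± below is the scanner software's error within an array, on the log2 scale, not a spread between cultures.

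In the gastrulating mouse embryo, epiblast cells move through the primitive streak under Nodal, Wnt and FGF signals and become mesoderm or definitive endoderm. Cells that leave the streak switch off epiblast and streak genes within a short time and take up fates that depend on when and where they left. Flk1, the VEGF receptor encoded by Kdr, marks early mesoderm with the potential to form blood, endothelium and heart.

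RNA signals of genes that mark the populations matched the labels only in part. The labels rest on surface protein or GFP at sorting, which the arrays did not measure. The study also found PDGFRα on part of its sorted Flk1+ MPCs. Kdr, which was used for the sort and whose level is therefore no finding, had a scaled signal of 47509 in Flk1+ MPCs, 4719 in sfPCBs and, in turn, 942 in PCBs and 2384 in M+CMs. Pdgfra, the marker of cardioblasts, gave 7237, 3647, 9136 and 918 in the same order. The sfPCBs, described in the study as PDGFRα+ Flk1-, thus had less Pdgfra signal than Flk1+ MPCs. Their averaged Kdr signal was above that of PCBs and M+CMs, but this order held for only 1 of the 2 Kdr probes. The second probe alone was lowest for sfPCBs (6661), against 7272 for PCBs and 7499 for M+CMs. Myh6, the αMHC gene, gave 40.6, 43.5, 6157 and 112738. Of 16 markers of stromal feeder cells and fibroblasts, 10 were above background in Flk1+ MPCs, all 16 in sfPCBs and 15 each in PCBs and M+CMs, with summed signals of 9821, 359630, 185111 and 33941. Postn, Lum, Dcn, Lox, Vcam1 and Fap were not above background in Flk1+ MPCs. Hprt, usually a constantly expressed gene and known to be defective in E14Tg2a cells, gave 210, 2937, 2669 and 80.2 in the order above. The part of feeder cells or of the cell line in the results was not tested.

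The scores of the 93 transcripts ran from 3.13 to 6.49 on the log2 scale, that is from 8.76-fold to 90.1-fold over the next highest population, with a median of 3.86 (14.5-fold). Among all ranked names, 110 (0.668%) reached 8-fold and 907 (5.51%) reached 2-fold by the same measure, and the members past both levels were fixed by the rule. The error of a score ran from 0.20 to 1.46, with a median of 0.25. Scaled signals in Flk1+ MPCs ran from 33.8 to 47509 with a median of 766, close to the median of 803 over all ranked names. A signal of about 15 to 16 was the lowest called well above background on these arrays, so a comparison array below that level gives only a lower bound for a fold. With such bounds in place of the measured folds, 74 members were at least 8-fold above each of the other populations, 85 at least 4-fold (1.66% of all ranked names by measured fold) and 93 at least 2-fold. In these sorted populations, fewer expressing cells and less RNA per cell cannot be told apart.

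The threshold fell in a dense stretch of scores. Just inside it were Kcnc1 (3.17), Pilrb1 (3.17), Rab39 (3.15), Efcab10 (3.14) and Cer1 (3.13). Just outside it were Ccer1 (3.13), Rhbg (3.12), Gm5934 (3.12), Pilra (3.10) and Cfap299 (3.08).

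Transcription factors were the largest group with a named role, with 20 members. Their scores reached 5.93, and sfPCBs had the second highest signal for 15 of them, a count without a share over all ranked names beside it. Mesp2 (NM_008589), a basic helix-loop-helix factor of presomitic and early mesoderm, had the highest score in the group. Its signal was 1716 in Flk1+ MPCs and 22.4, 24.2 and 28.2 in sfPCBs, PCBs and M+CMs, a difference of 5.93 ± 0.27 from the next highest. The 3 later populations lay close together and just above background. Its promoter window, 250 bases before to 50 after the start site in RefSeq's table for GRCm38.p6, lies at chr7:79810477-79810776 on the plus strand. It is shown because it holds the FOXH1 letters ATCCACA, in capitals, 25 bases after the start. FOXH1 is a cofactor of Nodal signalling.
Mesp2 promoter: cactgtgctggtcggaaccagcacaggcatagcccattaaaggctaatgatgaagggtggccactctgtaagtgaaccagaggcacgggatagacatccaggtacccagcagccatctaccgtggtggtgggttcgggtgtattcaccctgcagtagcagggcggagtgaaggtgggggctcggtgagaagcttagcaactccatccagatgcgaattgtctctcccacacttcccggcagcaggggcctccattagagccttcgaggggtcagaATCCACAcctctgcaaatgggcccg
These letters, searched on both strands, occur in 3.38% of the 32851 promoter windows of the table, and a match is a description, not a binding site. Only 67 of the 92 genes have a window in that table, some of them several. Of their 88 windows 6 hold these letters, against 2.46% of the 15710 windows for genes of all ranked names. No test was made of this difference.

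**Figure D1:**
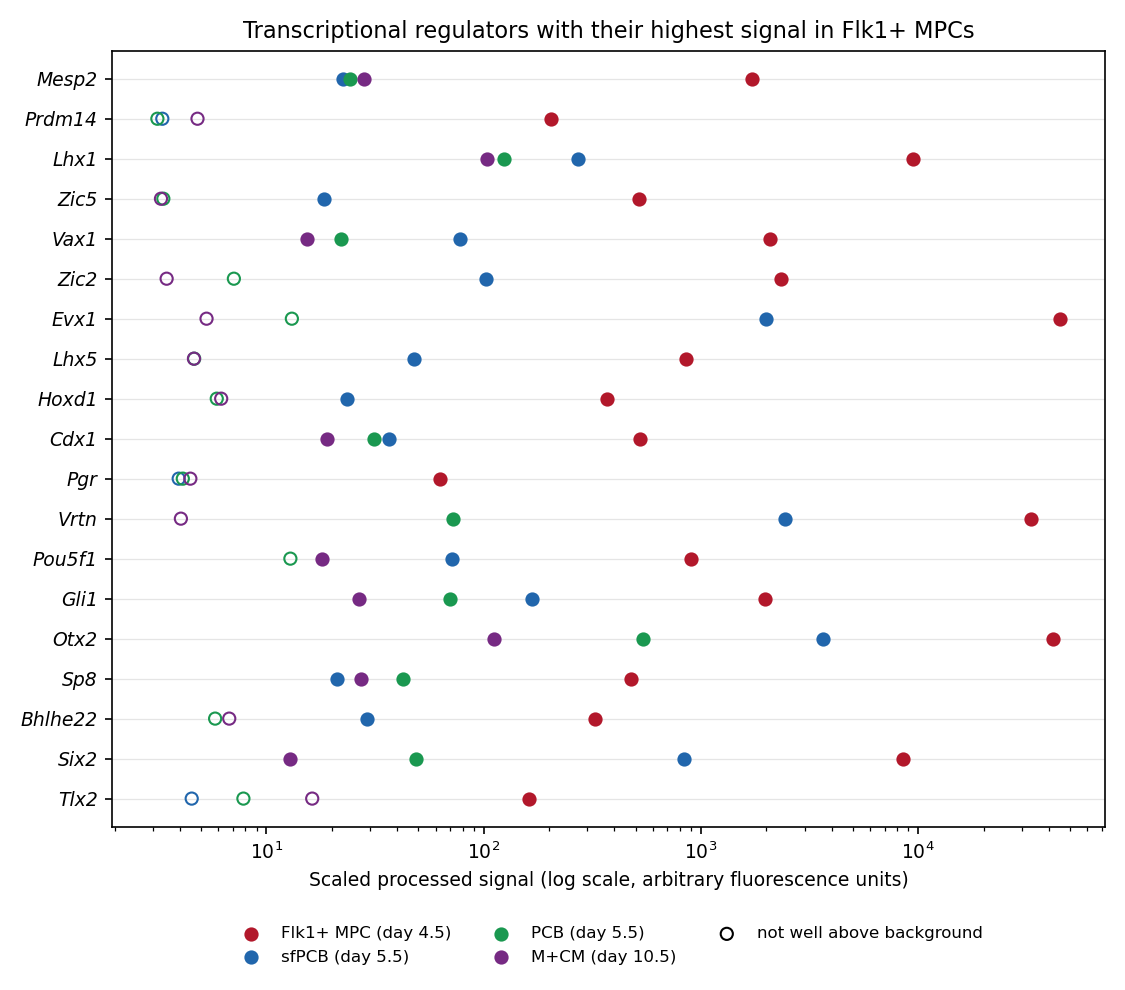
Scaled signals (log axis, arbitrary fluorescence units) of transcription factors among the members in the 4 populations, ordered by score from the top, with open circles for signals not well above background. The Flk1+ MPC signals run from 62.6 to 44790.3 and each lies to the right of every other point of its row.

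LIM and paired-like homeodomain factors stood beside Mesp2. Lhx1 (NM_008498), needed for head formation from anterior mesendoderm, had signals of 9466, 271, 124 and 104 in Flk1+ MPCs, sfPCBs, PCBs and M+CMs, a score of 5.12 ± 0.21. Otx2 (NM_144841), a head and epiblast regulator, had 41939.9, 3650.3, 542 and 112, with a score of 3.52 ± 0.20. Lhx5, the relative of Lhx1, had 856 in Flk1+ MPCs and 47.8 in sfPCBs and was not above background in the others. Each of these genes had its second highest signal in sfPCBs, and their order from Flk1+ MPCs to sfPCBs to PCBs was the same.

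Evx1 and Vrtn had steep gradients over the populations. Evx1 (NM_007966), a homeobox factor of the posterior streak, had signals of 44790.3 in Flk1+ MPCs and 1999 in sfPCBs. It was not above background in PCBs (13.1) or M+CMs (5.30), which puts Flk1+ MPCs at least 2881-fold above PCBs. Vrtn (NM_001168588), vertnin, known for its part in setting vertebra number, had 32949, 2444, 72.4 and 4.04 in the usual order, the last not above background. Both were well above background in sfPCBs.

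The zinc finger factors of the Zic family were represented by Zic2 and Zic5, genes of the epiblast and neural plate. Zic5 had signals of 517 and 18.5 in Flk1+ MPCs and sfPCBs and was not above background elsewhere (score 4.81 ± 0.33). Zic2 had 2331 and 102 and was likewise below that level in PCBs and M+CMs (4.51 ± 0.21). Zic2 and Zic5 are neighbours on chromosome 14 with no coding gene between them.

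Among the other factors, Vax1, known from the ventral forebrain, had 2069, 77.8, 22.03 and 15.4 (4.73 ± 0.22). Cdx1, a Wnt-responsive posterior homeobox gene, had 523, 36.5, 31.2 and 19.0 (3.84 ± 0.24). Six2, a factor of kidney and head mesenchyme progenitors, had 8541, 839.8, 49.0 and 12.8 (3.35 ± 0.20). These are graded patterns in which no signal after day 4.5 exceeded that of sfPCBs. Gli1, the transcriptional effector and target of Hedgehog signalling had 1962, 167, 69.6 and 26.8. Hoxd1, an anterior Hox gene, and Bhlhe22, a factor of neural differentiation, had 371 and 324 in Flk1+ MPCs, 23.5 and 29.0 in sfPCBs, and were not above background later. Tlx2, a mesoderm gene responsive to BMP, and Pgr, the progesterone receptor, were above background only in Flk1+ MPCs, at 162 and 62.6. Sp8, a zinc finger factor of the Wnt pathway related to Sp5, was less certain. Its name averages a pair of probes that disagreed, one with 1832 in Flk1+ MPCs and under 10 in the other populations, the other with 123, 132, 184 and 231. With only the probe that was brighter on average its score was -0.91, so its place among the members rests on a single probe.

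Pluripotency and germ line genes formed a small group. Pou5f1 (NM_013633), the Oct4 gene, had signals of 897 in Flk1+ MPCs, 71.6 in sfPCBs and 18.01 in M+CMs and was not above background in PCBs (12.9), with a score of 3.65 ± 0.21. Dppa5a, an RNA-binding protein of pluripotent cells, had 8781, 327, 209 and 225 (4.75 ± 0.20). Prdm14, a regulator of naive pluripotency and primordial germ cells, had 204 in Flk1+ MPCs and between 3.15 and 4.82 elsewhere, not above background, which gives at least 13.2-fold over each. Tcstv3, of a family known from the early embryo whose close copies may share its signal, had 1067, 78.1, 30.2 and 36.6. Sycp3, a protein of the meiotic chromosome axis, had 2799, 294, 231 and 51.7. Genes of the same class did not move as one. Nanog had 380, 111, 94.8 and 135, a score of 1.49, while Sox2 was highest in sfPCBs at 877 against 167 in Flk1+ MPCs.

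Secreted ligands and their antagonists had 13 members and scores between 3.13 and 5.90. Ligands of the FGF family, which drive movement of cells away from the streak, were represented by Fgf3, Fgf4 and Fgf15. Fgf3 (NM_008007) had signals of 1157 in Flk1+ MPCs and 23.6 in sfPCBs and was not above background in PCBs or M+CMs (score 5.62 ± 0.32). Fgf4 (NM_010202), also a ligand of the epiblast, had 505 and was above background elsewhere only in M+CMs, at 20.1 (4.65 ± 0.33). Fgf15 (NM_008003) had 1375 and 135 in Flk1+ MPCs and sfPCBs and was below that level in PCBs and M+CMs (3.35 ± 0.21). The 3 genes lie next to each other on chromosome 7, with no coding gene between neighbours in RefSeq's gene order. Spry4, a feedback inhibitor of FGF signalling inside the cell, had 1556, 82.8, 54.6 and 77.8 (4.23 ± 0.21). Fgf8, a major streak ligand, fell outside the set with 1741, 146, 395 and 69.3, a score of 2.14.

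**Figure D2:**
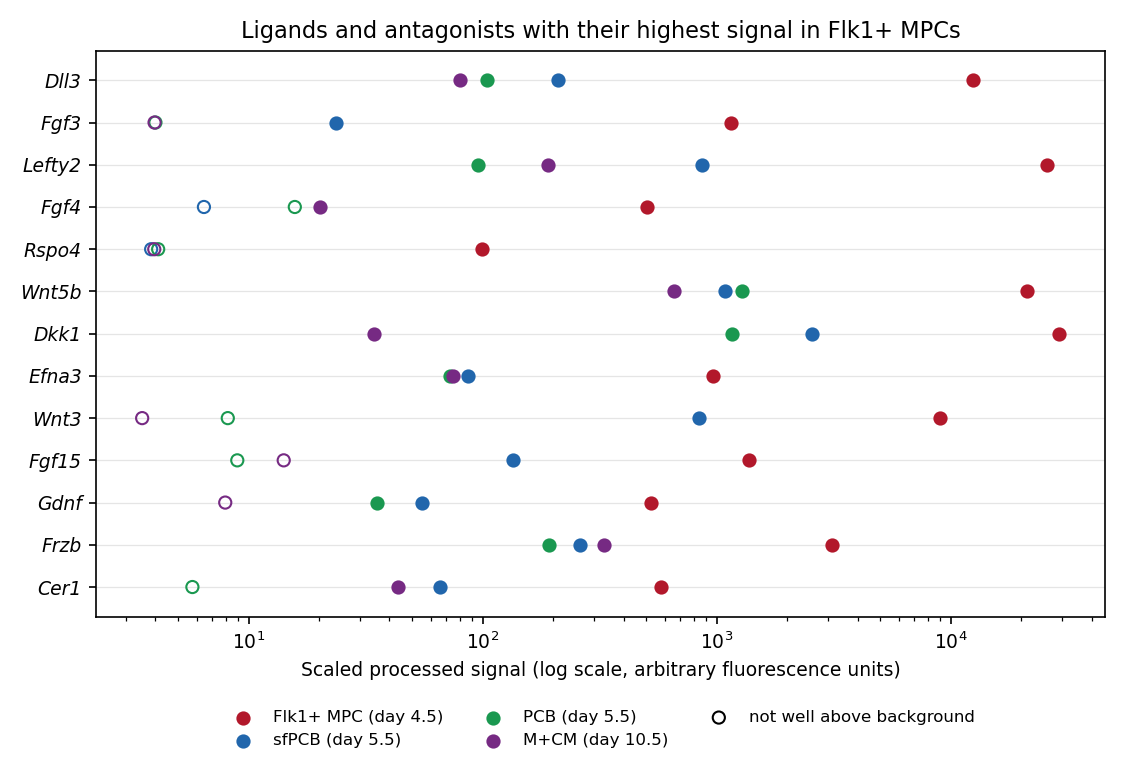
Scaled signals (log axis, arbitrary fluorescence units) of the 13 ligands and secreted antagonists in the 4 populations, ordered by score from the top, with open circles for signals not well above background. Wnt3, Fgf15 and Fgf3 had filled points in sfPCBs but not in PCBs, whereas Wnt5b kept signals of 1089 and 1285 in these populations.

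Wnt pathway members were the ligands Wnt3 and Wnt5b and the extracellular inhibitors Dkk1 and Frzb. Wnt3 (NM_009521), which is required to form the primitive streak, had signals of 8994 in Flk1+ MPCs and 838 in sfPCBs and was not above background in PCBs (8.15) or M+CMs (3.51), with a score of 3.42 ± 0.20. Wnt5b (NM_001271757), a ligand that mostly acts without beta-catenin, had 21240.1, 1089, 1285 and 655 (4.05 ± 0.20). Dkk1 (NM_010051), a Wnt co-receptor antagonist, had 28991, 2552, 1160.2 and 34.4 (3.51 ± 0.20). In M+CMs the signal of Wnt5b was 655 and that of Dkk1 34.4, each above background. Frzb, a secreted Frizzled-like antagonist, had 3102, 259.6, 191 and 331 (3.23 ± 0.20). Gdnf, a neurotrophic ligand that also guides kidney budding, had 523, 55.1, 35.3 and 7.95, the last not above background (3.25 ± 0.22). Rspo4, of the R-spondins that enhance Wnt signals, had 99.2 in Flk1+ MPCs and was not above background elsewhere, at least 6.38-fold.

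Promoter windows of Wnt5b and Dkk1 are shown for the motifs searched in them. Wnt5b has 3 windows on the minus strand of chromosome 6 in the table. The window at chr6:119449337-119449636 holds the TCF/LEF letters ATCAAAG on the reverse strand, read as CTTTGAT (capitals) on the strand shown, 71 bases before the start. The window at chr6:119467162-119467461 holds ATCCACA in capitals 105 bases before the start. The window of Dkk1 at chr19:30549447-30549746, on the minus strand, holds the TATA box letters TATAAA in capitals 54 bases before the start.
Wnt5b promoter, first window: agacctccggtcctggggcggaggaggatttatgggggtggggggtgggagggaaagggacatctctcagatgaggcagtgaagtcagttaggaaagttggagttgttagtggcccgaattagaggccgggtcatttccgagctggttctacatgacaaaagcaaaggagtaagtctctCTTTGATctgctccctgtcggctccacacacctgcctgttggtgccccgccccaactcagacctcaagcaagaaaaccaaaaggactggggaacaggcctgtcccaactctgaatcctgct
Wnt5b promoter, second window: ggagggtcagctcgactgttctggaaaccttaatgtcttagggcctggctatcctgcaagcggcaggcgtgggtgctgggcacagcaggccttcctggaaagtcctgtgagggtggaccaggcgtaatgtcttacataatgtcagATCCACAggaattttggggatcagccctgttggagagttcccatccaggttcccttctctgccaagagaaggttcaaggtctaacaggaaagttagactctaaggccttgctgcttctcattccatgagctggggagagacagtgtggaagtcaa
Dkk1 promoter: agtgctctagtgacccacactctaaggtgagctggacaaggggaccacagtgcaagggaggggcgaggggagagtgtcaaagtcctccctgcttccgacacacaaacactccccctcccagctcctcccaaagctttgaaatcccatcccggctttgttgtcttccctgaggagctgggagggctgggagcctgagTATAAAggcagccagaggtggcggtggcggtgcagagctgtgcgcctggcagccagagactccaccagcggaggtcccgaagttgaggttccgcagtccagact
The TCF/LEF letters occur in 3.73% of all windows of the table and the TATA box letters in 13.6%. For genes of all ranked names the shares are 2.76% and 8.98%, and 3 and 10 of the 88 windows of the members hold them.

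Nodal antagonists were represented by Lefty2 and Cer1. Lefty2 (NM_177099), itself a target of Nodal, had signals of 25874, 865, 95.7 and 190.4 in the usual order, with a score of 4.90 ± 0.20. Cer1 (NM_009887), secreted by anterior endoderm and mesendoderm, had 577, 65.9 and 43.5 in Flk1+ MPCs, sfPCBs and M+CMs and was not above background in PCBs (3.13 ± 0.21). Nodal was not a member. Its signals were 8675, 7382, 161 and 143, so that Flk1+ MPCs and sfPCBs differed by 0.23, about the size of the error of a score, while Lefty2 differed by 4.90 between the same arrays.

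Genes of Notch and Eph signalling were represented by a ligand of each pathway and a receptor. Dll3 (NM_007866), a Delta-like protein of the presomitic mesoderm, had signals of 12459, 209, 105 and 79.7, a score of 5.90 ± 0.21. Its probes both had the pattern, with separate scores of 6.44 and 5.36. Epha1 (NM_023580), a receptor tyrosine kinase for ephrins, had 10711, 185, 73.8 and 149 (5.85 ± 0.21). The ephrin ligand Efna3 had 966, 86.4, 72.7 and 74.7 (3.48 ± 0.30), but its probes gave separate scores of 0.96 and 5.31. Dll1, the Delta-like ligand that activates Notch in the same tissue, had 1161, 49.3, 26.3 and 157, a score of 2.88, just under the level of the set.

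The receptors and intracellular signalling proteins numbered 16. Robo3, a Slit receptor relative, had 997 in Flk1+ MPCs and 34.97 in sfPCBs and was not above background in the others (score 4.83 ± 0.26). Dgkg, a diacylglycerol kinase, had 567 and was above background elsewhere only in M+CMs at 16.9 (5.07 ± 0.35). In this group M+CMs held the second highest signal as often as sfPCBs did, for 5 members each, again without a share over all ranked names. Amhr2 (NM_144547), the receptor for anti-Müllerian hormone, had 12181, 378, 361 and 511 (4.57 ± 0.20). S1pr5, a sphingosine 1-phosphate receptor, had 1195, 14.2, 21.1 and 66.9, the signal in sfPCBs not above background. Prkcb, a protein kinase C, had 1731, 50.7, 65.7 and 82.4 (4.39 ± 0.22). Several receptors were dim. The odorant receptor genes Olfr1303 and Olfr1234 had 37.5 and 108 in Flk1+ MPCs and were not above background elsewhere, with folds of at least 2.41 and 6.95. The second probe of Kdr had 11263, 6661, 7272 and 7499, a separate score of 0.59 against 3.59 for the first.

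Adhesion, junction and matrix genes had 9 members, and 6 of these were above background in no other population. Kdf1 (NM_001083916), a regulator of epidermal differentiation, had the highest score of the whole set, 6.49 ± 0.36. Its signal was 1471 in Flk1+ MPCs and 6.15, 4.73 and 16.3 in sfPCBs, PCBs and M+CMs, none of them above background, at least 90.1-fold over each. Pkp1, a desmosomal plakophilin, had 233 and at most 4.62 elsewhere, at least 15.0-fold. Gjb6, a connexin of epithelia, had 92.3 and at most 3.79, at least 5.94-fold. Optc, opticin, a small leucine-rich matrix protein, had 3195 and 97.3 in Flk1+ MPCs and sfPCBs and was not above background later (5.04 ± 0.21). Pcdh8 (NM_021543), paraxial protocadherin, an adhesion protein of streak and paraxial mesoderm, had 1421, 47.1, 21.0 and 22.2 (4.91 ± 0.23). Its window at chr14:79771263-79771562, on the minus strand, is shown for the letters TATAAA, in capitals 30 bases before the start, the place where TATA boxes usually lie.
Pcdh8 promoter: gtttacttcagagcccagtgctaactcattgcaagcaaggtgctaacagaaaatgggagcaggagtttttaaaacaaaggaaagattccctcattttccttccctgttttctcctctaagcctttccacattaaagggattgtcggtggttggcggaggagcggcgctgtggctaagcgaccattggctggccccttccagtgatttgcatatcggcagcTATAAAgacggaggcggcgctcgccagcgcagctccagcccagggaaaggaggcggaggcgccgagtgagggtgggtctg

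Enzymes and transporters were few. Cyp4f15, a cytochrome P450 of fatty acid hydroxylation, had signals of 1932, 75.04, 46.7 and 3.84, the last not above background (score 4.69 ± 0.22). Ptgds, a prostaglandin D2 synthase, had 7211, 228, 39.6 and 296 (4.61 ± 0.20). The voltage-gated potassium channel gene Kcnc1 entered by both of its names, NM_001112739 with 93.8 and at most 3.89 elsewhere, and NM_008421 with 974, 23.2, 27.7 and 108. Genes best known from neurons were dim, with Kcnc2, another potassium channel gene, at 56.9 and the nicotinic receptor gene Chrna4 at 112 in Flk1+ MPCs, and neither was above background elsewhere. Alox15, a lipoxygenase gene, had 68.6 and at most 3.23 elsewhere, at least 4.41-fold. Among the 18 proteins with other or little-known roles, Grrp1 had 34686, 2174, 868 and 119.9, and Syndig1l, the coding neighbour of Vrtn on chromosome 12, had 1693, 47.2, 3.30 and 20.8. Pdlim4, a LIM protein of the actin cytoskeleton, had 14220.1, 1390.0, 703 and 1161, so that its score of 3.35 left high signals in each later population. Sowahd had 526 in Flk1+ MPCs and between 4.54 and 10.8 elsewhere, not above background. Tmem114 had 1877, 36.7, 44.0 and 46.7. The unmatched name NM_001005418 had 938 in Flk1+ MPCs and was above background elsewhere only in M+CMs, at 20.5 (5.52 ± 0.30).

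Of the 93 members, 61, 44 and 48 were above background in sfPCBs, PCBs and M+CMs, against 95%, 95% and 95.4% of all ranked names. In all, 27 members were above background in no other population, against 1.81% of all ranked names, and 39 were above background in all of them, against 91.6%. The rule favours names that are low elsewhere, so nothing is read from these shares. The 27 had a median signal of 93.8 in Flk1+ MPCs, 25 of them lay under 250 and 15 under 100, and the median error of their scores was 1.27. The lowest bound was that of Matn1, a cartilage matrix protein gene, at 2.17-fold. For these transcripts the size of the fold is set by the floor of the array. The 39 had a median signal of 1962 and a median score of 3.77.

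By measured fold, Flk1+ MPCs exceeded sfPCBs by 30-fold or more for 25 members (0.209% of all names compared), PCBs for 46 (0.545%) and M+CMs for 43 (1.24%). Counting only folds between signals above background or bounds that reach this level, the numbers were 20, 40 and 36. The 13 members at least 30-fold above all the others in this sense included Kdf1, Mesp2, Dll3, Epha1, Fgf3, Lhx1 and Pcdh8.

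The members differed in how much signal was left at day 5.5 with and without CsAYTE. Both arrays entered the score, so this too is a description. Of 62 members above background in sfPCBs or PCBs, 53 were higher in sfPCBs and 9 in PCBs, with a median log2 difference of PCBs minus sfPCBs of -1.13 (2.19-fold higher in sfPCBs), against 0.01 over the 16977 names above background in either. A 2-fold excess in sfPCBs was reached by 33 members, where 8.65% of all those names passed, a 4-fold one by 19 (2.96%) and a 30-fold one by 4 (0.401%). These counts use measured folds, also against PCB signals not above background. With lower bounds in place of the latter, 27, 14 and 3 members passed, and Zic5, Fgf3, Hoxd1, Dnah11, Bhlhe22 and Shisa8 no longer reached 2-fold. A 2-fold excess in PCBs was found for 2 members, Sp8, with the probes that disagreed, and Gna14, a G protein subunit, with 23.3 in sfPCBs and 50.1 in PCBs, where 6.1% of all names passed. The excess of sfPCBs over PCBs was at least 129-fold for Evx1, at least 53.9-fold for Wnt3 and 33.7-fold for Vrtn. The 30-fold measured ratio of Jakmip1, which encodes a microtubule-associated protein, rests on the floor of the PCB array. It had 121 in sfPCBs and was not above background in PCBs, at least 7.8-fold. Six2 (17.1-fold), Lefty2 (9.04-fold), Fgf15 (at least 8.65-fold), Otx2 (6.74-fold) and Zic2 (at least 6.58-fold) followed. Wnt5b, Mesp2 and Tmem114 were on the side of PCBs by 0.24, 0.11 and 0.26 on the log2 scale. Of the 17 transcription factors above background in sfPCBs or PCBs, 13 were among the 33 members. The same held for 6 of 11 ligands or antagonists and for 7 of 10 proteins with other or little-known roles. With bounds, transcription factors contributed 10 and ligands or antagonists 5 of the 27. The summed stromal marker signal was also higher in sfPCBs (359630 against 185111 in PCBs), and its part in these differences was not tested.

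**Figure D3:**
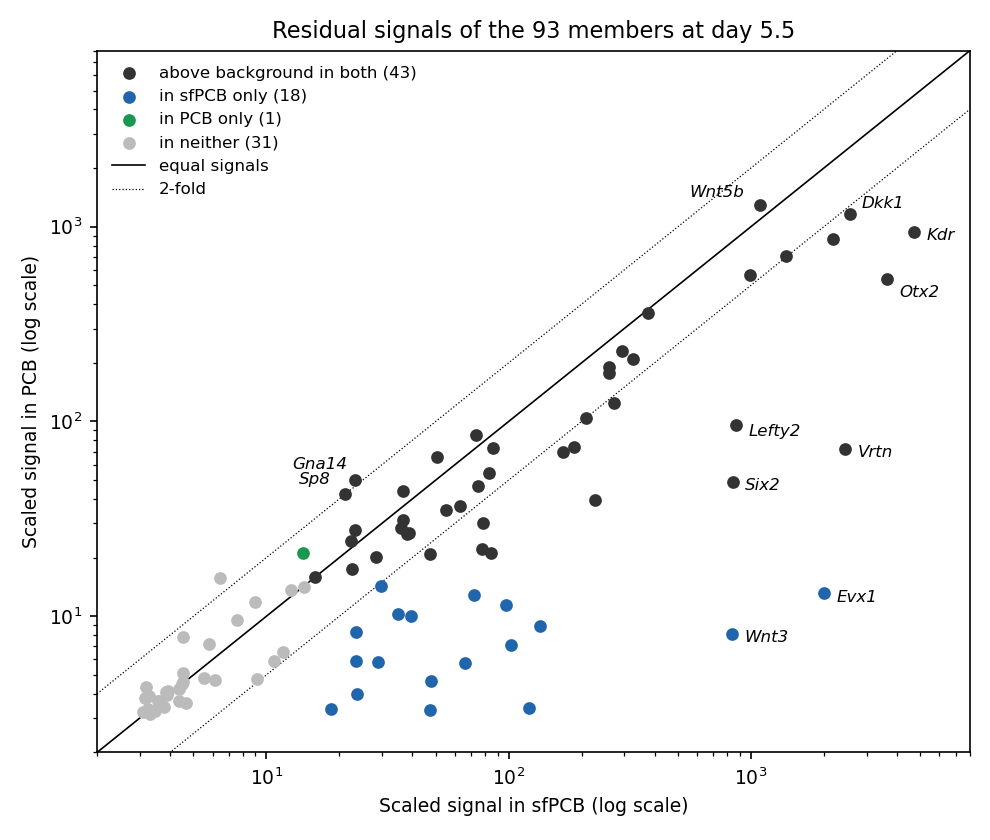
Scaled signal in sfPCBs (horizontal, log axis) against PCBs (vertical, log axis) for the 93 members, coloured by the populations in which they were above background, with lines for equal signals and for 2-fold differences. More points lie below the line of equal signals than above it, and Evx1 and Wnt3 lie farthest below.

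For 45 members sfPCBs held the second highest signal among populations above background, for 17 M+CMs and for 4 PCBs. The same shares over all ranked names were not counted. Nothing about the members is therefore read from these counts, nor from those given for single groups above. Between PCBs and M+CMs, 52 members were above background in either, of which 10 had 2-fold or more signal in M+CMs (20% of all names) and 9 in PCBs (17.2%). Ptgds was among the former and Dkk1 among the latter. Dennd2c, a regulator of Rab GTPases, had its second highest signal in M+CMs, with 1928, 84.7, 21.2 and 213 in the usual order.

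Lists of genes with known roles place the members in their pathways. The score that chose the members also gives these counts, and the lists were made with earlier results known, so the counts are a description only. Over all ranked names, 38.7% were higher in Flk1+ MPCs than in each other population, and 5.51% by at least 2-fold. Of 38 ranked genes of primitive streak and early mesoderm, 32 were highest in Flk1+ MPCs, and 28 by at least 2-fold, with a median score of 2.68. This list holds 10 members and all 10 names that the rule leaves out. Among these, Tbx6, Fgf5 and Msgn1 were under the level of the set, with scores of 2.39, 2.42 and 0.42. The corresponding counts were 20 and 13 of 24 for epiblast and pluripotency (median 1.22), 16 and 16 of 25 for Wnt ligands, targets and inhibitors (median 2.53), and 15 and 11 of 17 for FGF ligands and feedback genes (median 1.87).

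Other lists were mixed or low. For the Nodal and TGF-beta pathway 11 of 19 genes were highest in Flk1+ MPCs and 8 by at least 2-fold (median 0.23), and for Notch and segmentation 9 and 7 of 16 (median 0.47). Endoderm genes gave 8 and 8 of 15 (median 1.51). Of 22 genes of endothelial and blood precursors 5 were highest in Flk1+ MPCs (median -1.14), and Kdr was the only member among them. Etv2, an early regulator of that lineage, had 14707, 6646, 97.9 and 22.9, a score of 1.15. Early ectoderm genes gave 6 of 14 (median -0.04), with Otx2 and Zic2 as members, while Sox2 and Sox3 were highest in sfPCBs. Germ cell genes gave 6 of 8 (median 0.76), with Prdm14 as the member. Cardiac genes gave 1 of 22 (median -6.02) and stromal markers 1 of 10 (median -4.39). The 10 constantly expressed genes had a median of 0.16, and none was at least 2-fold higher in Flk1+ MPCs than in each other population. The score does not count differences the other way. Hprt, on this list, was far lower in Flk1+ MPCs than in sfPCBs or PCBs, with the values given above.

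**Figure D4:**
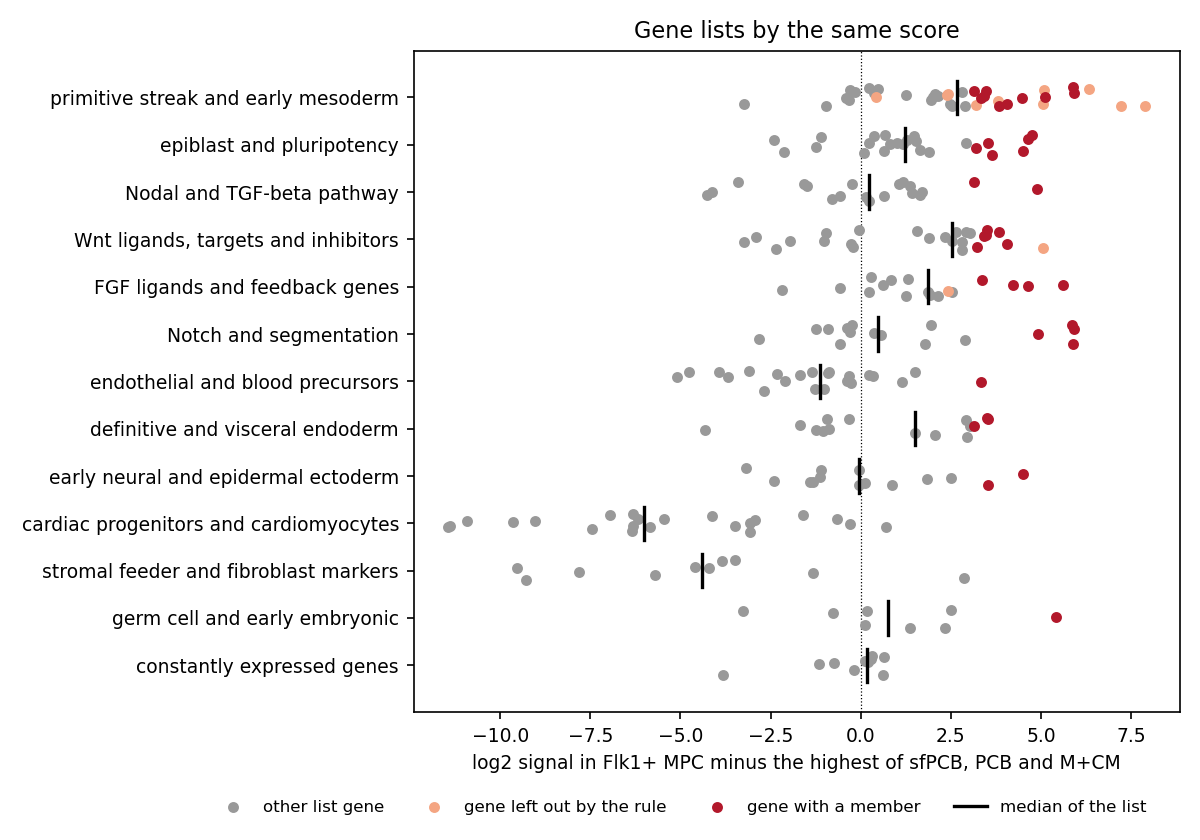
Score (log2 signal in Flk1+ MPCs minus the highest of the other populations) of the ranked genes of 13 lists, with members and left-out genes coloured and the median of each list as a bar. The medians run from -6.02 for cardiac genes to 2.68 for primitive streak and early mesoderm genes.

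Applied to each population in turn, the same rule without removals gave a median score of the top 100 names of 3.91 for Flk1+ MPCs, 3.11 for sfPCBs, 1.88 for PCBs and 5.58 for M+CMs. Names at least 8-fold above the next highest population numbered 110, 60, 11 and 357. sfPCBs and PCBs share a day, and each stands among the other populations of the other, so these numbers are given side by side only.

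Several probes bear on 14 of the members. Of their 28 probes, 27 were highest in Flk1+ MPCs and 20 by at least 8-fold, and the probes of 7 names differed by more than 2 on the log2 scale in their scores. Besides Sp8, Kdr and Efna3, the unmatched name NM_007847 had probes with scores of 5.30 and 2.50. Pigp, a subunit of the enzyme that starts GPI anchor synthesis, had 4102, 259, 177 and 320.3 under its member name NM_001159620, while its other name, NM_001159617, was highest in M+CMs with 7745, 9673, 7487 and 14366. These probes read the same RNA samples and add no replicate.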

How the data were processed

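RNA from 4 mouse cell populations was measured on 1-colour Agilent arrays, with 1 array per population, so no test and no replicate error could be had. Spot intensities were deposited as written by Feature Extraction 11.5.1.1 (named in the submitters' processing notes), with a processed signal from which the software subtracts background, an error for it, median signals and flags, not normalized between arrays. The value table deposited by the authors held log2 of the unscaled processed signal averaged per probe, and served as an alternative only. The array was annotated on mouse build mm9 per the file headers, and spots carry identifiers without symbols. Symbols, neighbours and promoters were matched through RefSeq tables of GRCm38.p6.

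Control spots and flagged spots (87 to 144 per array) were left out of 43020 spots, and 0 were saturated. Scaling set the 75th percentile of each array (1969.6 to 2536) to their mean (2198), with factors from 0.867 to 1.12, log2 values were averaged per RefSeq name, and no offset was added. A name counted as above background where at least 0.5 of its spots were called so by the software. Between 73.3% and 76.2% of spots were well above background, negative controls had medians of 3.47 to 3.70, and repeated spots had an SD of 0.054 to 0.094 on the log2 scale. The number of arrays, not counting error, limits the precision. A fold against a signal not above background was replaced by a bound, against the higher of the lowest signal well above background on that array and the signal itself.

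The 100 names with the highest scores were taken first and the listed names removed afterwards. The members and gene lists were chosen with earlier results of these data known. Named genes were the 30 highest scores, members on a gene list, the 5 names on each side of the threshold, the 10 highest signals in Flk1+ MPCs, the 10 largest differences between sfPCBs and PCBs in each direction, and the sort genes, and Gli1, Hoxd1, Bhlhe22, Tlx2, Pgr, Tcstv3, Sycp3, Gdnf, Olfr1303, Olfr1234, Kcnc2, Chrna4, Alox15, Dennd2c, Dnah11, Shisa8, Efna3, Pigp, Matn1 and NM_007847 were named after their values were seen. Some members are counted but not reported here by name. The scoring was tested on simulated data. Alternatives were quantile normalization, no scaling, normexp with an offset of 50, the offset alone, other detection filters, other averages over spots, flagged spots kept, the authors' table and another order of the rule. Python 3.11.15 with numpy 2.4.6, pandas 2.3.3 and matplotlib 3.10.9, and R 4.3.3 with limma 3.58.1, were used.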

Additional observations from a re-analysis of the deposited data

How the results depend on the processing

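With a single array for each population no replicate could be left out, and differences between cultures have no estimate. No paired analysis was possible because each population has 1 array and the labels give no replicate numbers. Quantile normalization, no detection filter, the brightest probe, the median over spots, flagged spots kept, the authors' table and the other order of the rule moved none of the 10 summary values by over 1.5 times or beyond its spread. Low signals set the size of many folds. With normexp and an offset of 50, 60 members stayed in the top 100, the median score was 2.83, the members at least 30-fold above sfPCBs, PCBs and M+CMs numbered 2, 15 and 14, and the median difference of PCBs minus sfPCBs was -0.41. With the offset of 50 alone, these values were 60, 2.98, 2, 17, 18 and -0.47. Only 39 members were above background on all 4 arrays, and with that filter 11, 18 and 16 passed 30-fold, sfPCBs were second highest for 23, none was without a second population above background (0), and the median difference was -0.60. Without scaling, 15 members were at least 30-fold above sfPCBs and M+CMs were second highest for 10. Of 555 scores of 53 named members under 11 alternatives, 424 stayed within their error, 129 became smaller and 1 larger, and that of Sp8 turned to -0.91 with the brightest probe.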

Other observations

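Names other than curated messenger RNAs were scored in the same way, as values only. Of 8034 such names above background in Flk1+ MPCs, 35 reached the score of the last of the top 100 (3.13). Evx1os, the noncoding transcript listed as opposite to Evx1, had scaled signals of 937 in Flk1+ MPCs, 53.7 in sfPCBs and, not above background, 9.95 in PCBs and 9.65 in M+CMs, a score of 4.13. Pou5f1-rs4, a related sequence of Pou5f1 that may share its signal, had 336, 21.5, 7.70 and 4.21, with a score of 3.97. The name with the highest score of this kind, ENSMUST00000018842, which the tables used here do not pair with a symbol, had 34518, 542, 119 and 12.2, a score of 5.99.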
